A study of Mus musculus with 9 samples.

Results

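Cathepsins, the proteases that digest protein inside lysosomes, and subunits of the vacuolar ATPase (V-ATPase), the pump that acidifies lysosomes, were followed across 9 expression arrays of the mouse squamous carcinoma line SCCVII. The genes were taken by symbol from probe sets that the platform annotation assigns to a single gene: the lettered cathepsins (Ctsa, Ctsb and so on) and every gene whose symbol begins with Atp6v0 or Atp6v1. This gave 38 genes of 18194 measured, 18 cathepsins and 20 V-ATPase subunits, read by 75 probe sets, and each gene was represented by its brightest probe set, judged by the mean of all 9 arrays. IR denotes cells recovered from tumours that parental cells formed in stroma irradiated before the injection. NIR denotes cells recovered from tumours formed in stroma left unirradiated. PA denotes the parental cells kept in standard culture, from which both other groups descend. Each group had 3 arrays. The tumour of origin is given as a spontaneous oral carcinoma of CH3 mice, as the labels spell the strain. Nothing in the labels tells whether arrays of one group represent different tumours, lines or culture dishes. The p-values therefore measure the spread between these samples, which may be technical. The labels call the IR tumours hypoxic and the IR lines invasive and metastatic, and the NIR lines poorly so. Secreted cathepsins and acidification of the cell surface have been studied in tumour invasion, and the comparisons show whether transcripts of this machinery differed between these cells.

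Cathepsins are made as inactive precursors, sorted to endosomes and lysosomes, and activated there at acid pH. Most are cysteine proteases related to papain (Ctsb, Ctsc, Ctsf, Ctsh, Ctsk, Ctsl, Ctso, Ctss, Ctsw, Ctsz). Ctsd and Ctse are aspartic proteases, and Ctsa and Ctsg are serine proteases. The V-ATPase has a cytosolic V1 sector that hydrolyses ATP and a membrane sector, V0, that carries protons into the organelle. Several subunits come as alternative isoforms, one used in nearly every cell and others in kidney, bone-resorbing cells, testis or neurons. Many lysosomal genes carry in their promoters an E-box bound by the transcription factor TFEB and its relatives.

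To show what the promoters of these genes look like, RefSeq windows on GRCm38.p6 that run from 250 bases before to 50 bases after the gene's start were read for 28 of the 38 genes. The core E-box CACGTG, which reads the same on both strands, was present in the windows of 8 of these 28 genes (28.6%), against 8.09% of the 27025 genes with such a window. The longer form TCACGTG, searched on both strands and overlapping the core, was present in 6 of the 28 (21.4%), against 4.29% of all genes. The 6 genes were Ctsa, Ctsd, Atp6v0b, Atp6v0d1, Atp6v0e and Atp6v1a, and the other two with the core alone were Ctsf and Ctsl. A match describes the letters of the window and is not evidence of binding. One E-box of each gene with the longer form is shown with its flanks, 5′ to 3′ on the strand of the gene and with the core in capitals, except Ctsd, whose whole upstream stretch follows. They show the motif in its setting.
Atp6v0b, chr4:117887350-117887375, minus strand: gcgcgggggtCACGTGgggtcggcgc
Atp6v0d1, chr8:105566052-105566077, minus strand: ctactgcggtCACGTGagacgcggtg
Atp6v0e, chr17:26676389-26676414, plus strand: gcgcgccgatCACGTGagcctctgtt
Atp6v1a, chr16:44139375-44139400, minus strand: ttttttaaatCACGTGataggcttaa
Ctsa, chr2:164833751-164833776, plus strand: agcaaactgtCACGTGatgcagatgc

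The 250 bases upstream of Ctso and of Ctss are shown because these cathepsins had the largest differences between groups. Neither stretch contains the core E-box. The upstream stretch of Ctsd, which contains it at 2 places, is shown beside them.
Ctso, chr3:81932351-81932600, plus strand: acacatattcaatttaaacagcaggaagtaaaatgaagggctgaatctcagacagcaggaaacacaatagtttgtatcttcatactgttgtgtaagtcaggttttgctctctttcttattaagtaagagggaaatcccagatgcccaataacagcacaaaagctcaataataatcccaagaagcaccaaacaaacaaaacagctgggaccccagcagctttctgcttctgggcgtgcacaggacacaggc
Ctss, chr3:95526536-95526785, plus strand: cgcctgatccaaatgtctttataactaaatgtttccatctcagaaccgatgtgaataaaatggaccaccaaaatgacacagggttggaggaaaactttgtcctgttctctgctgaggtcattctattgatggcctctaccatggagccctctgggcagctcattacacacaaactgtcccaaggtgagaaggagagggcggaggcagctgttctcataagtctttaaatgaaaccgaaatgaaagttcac
Ctsd, chr7:142387828-142388077, minus strand: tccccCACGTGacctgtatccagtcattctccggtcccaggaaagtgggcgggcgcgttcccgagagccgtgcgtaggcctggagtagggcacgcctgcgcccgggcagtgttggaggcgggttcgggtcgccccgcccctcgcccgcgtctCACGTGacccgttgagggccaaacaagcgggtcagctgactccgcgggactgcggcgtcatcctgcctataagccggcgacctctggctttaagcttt

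All values are log2 expression values from the RMA method, and a difference of 1 is a doubling. Array medians ran from 4.45 to 4.52. Between arrays of the same group the SD of the log2 differences had a mean of 0.177 for IR, 0.201 for NIR and 0.166 for PA. IR3 lay further from the other IR arrays (0.195 and 0.199) than these lay from each other (0.137). Of 15 markers of squamous epithelium, 7 averaged above the median probe set, whose mean over the 9 arrays was 4.49. These were Krt8 (12.61 to 12.85), Krt18 (11.15 to 12.00), Sfn (6.22 to 6.56), Epcam (5.81 to 6.22), Pkp1 (5.17 to 5.73), Krt6a (4.96 to 5.26) and Krt5 (4.80 to 5.11). The other 8, among them Krt14 (3.66 to 4.03), Trp63 (4.15 to 4.38) and Cdh1 (3.24 to 3.37), were below it in every array. Of 12 fibroblast markers 9 averaged above it, among them Pdgfra (9.00 to 9.43), Dcn (7.66 to 9.38) and Col1a1 (5.98 to 7.46), while Thy1, Fap and Postn averaged below it. Dcn was higher than in PA in IR (1.24, limma adjusted p = 0.00265) and in NIR (0.81, 0.0391), and Lum was higher in NIR (1.29 against PA, limma adjusted p = 0.0241). The other 11 fibroblast markers did not pass between IR and PA, nor the other 10 between NIR and PA, nor any between IR and NIR. Of the squamous markers only Krt18 was called, higher in IR than in NIR (0.57, limma adjusted p = 0.0180) and than in PA (0.55, 0.0146). Of all genes 0.786% were called higher in IR than in NIR, 0.297% in IR than in PA and 0.379% in NIR than in PA.

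Few cathepsin or V-ATPase transcripts differed between groups beyond the spread of the arrays. Of the 38 genes, 1 cathepsin, Ctso, was higher in IR than in NIR, none was lower, and 37 did not pass (limma, Benjamini-Hochberg adjusted p below 0.05 over all genes). Of all genes 1.65% were called there, 0.786% higher and 0.863% lower in IR, and 5 of the 38 had an unadjusted limma p below 0.05 (13.2%, against 15.9% of all genes). Between IR and PA limma called none of the 38, where 1.06% of all genes were called (0.297% higher and 0.758% lower in IR), and 4 of them had an unadjusted limma p below 0.05 (10.5%, against 8.59% of all genes). Between NIR and PA none was called either, where 1.3% of all genes were called (0.379% higher and 0.918% lower in NIR), and 5 had an unadjusted limma p below 0.05 (13.2%, against 12.1%). The counts among the 38 genes were thus near the background. IR was compared with PA, and NIR with PA, on the same 3 PA arrays.

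**Figure D1:**
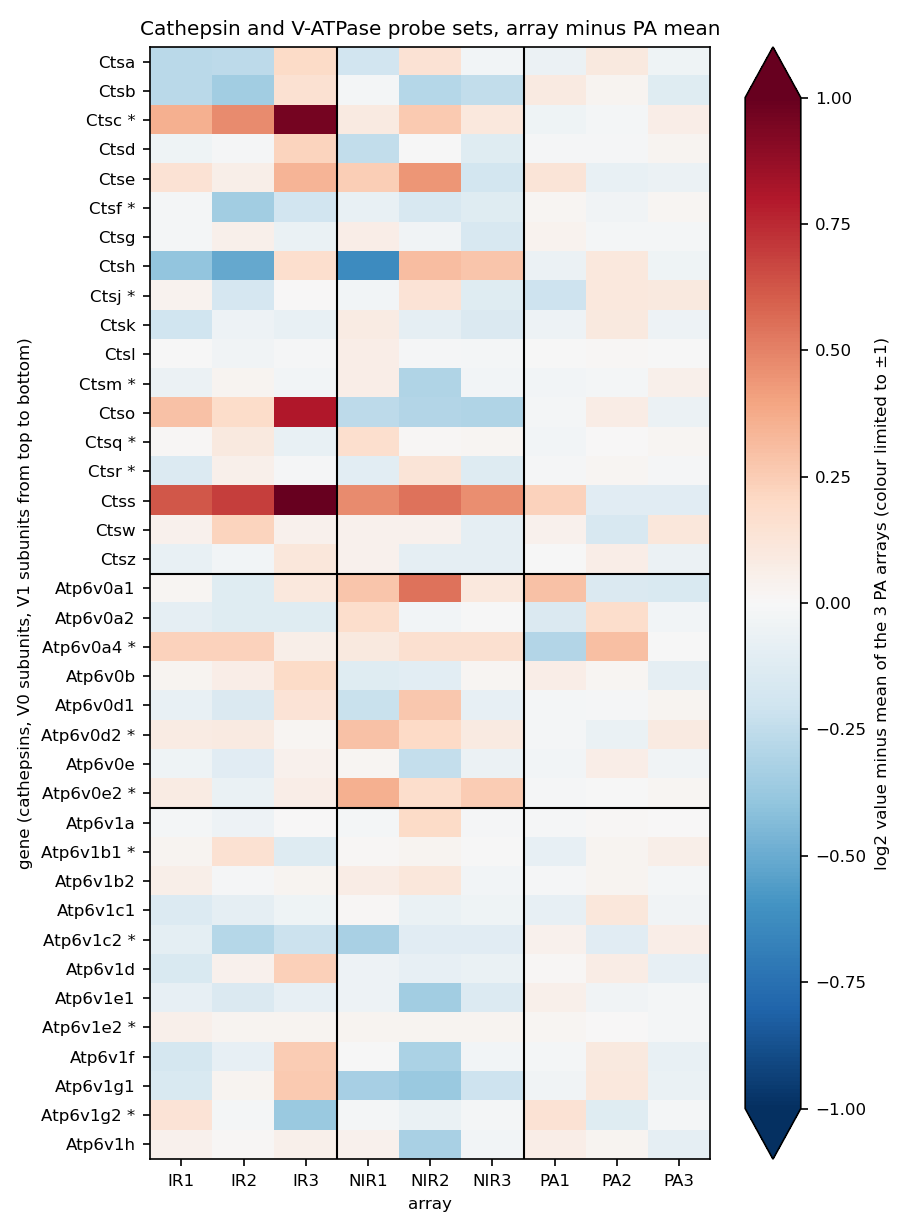
Log2 value of each of the 38 genes in each array minus the mean of the 3 PA arrays, with red above and blue below that mean. Genes run down the page as cathepsins, V0 and V1 subunits, an asterisk marks genes whose mean over 9 arrays is below the median probe set, and the strongest colours are those of Ctss, Ctsc and Ctso in IR3.

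The median difference of the 18 cathepsins was 0.020 between IR and NIR, -0.014 for IR against PA, and -0.029 for NIR against PA on the log2 scale. For the 20 V-ATPase subunits it was -0.0053, 0.0088 and -0.022 in the same comparisons, and over all genes tested it was 0.0014, 0.0043 and 0.0046. The arrays of IR and NIR did not overlap for 7 of the 38 genes (18.4%, against 18.1% of all genes). Those of IR and PA did not overlap for 5 (13.2%, against 14.7%), and those of NIR and PA for 8 (21.1%, against 15.5%).

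A call that misses the threshold does not show that levels were equal, so the 95% interval of each difference was set against a margin of 0.5 on the log2 scale, which is 1.41-fold. For the V-ATPase subunits the interval lay wholly inside this margin for 18 of 20 between IR and NIR, 20 of 20 between IR and PA and 18 of 20 between NIR and PA. For the cathepsins this held for 14, 14 and 15 of 18. Over the 38 genes together it held for 84.2%, 89.5% and 86.8%, and over all genes for 89.5%, 93.8% and 91.8%. By family it held for 90%, 100% and 90% of the V-ATPase subunits and 77.8%, 77.8% and 83.3% of the cathepsins. The cathepsins outside it in at least one comparison were Ctso, Ctss, Ctsc and Ctsh, and the V-ATPase subunits were Atp6v0a1 and Atp6v1g1.

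**Figure D2:**
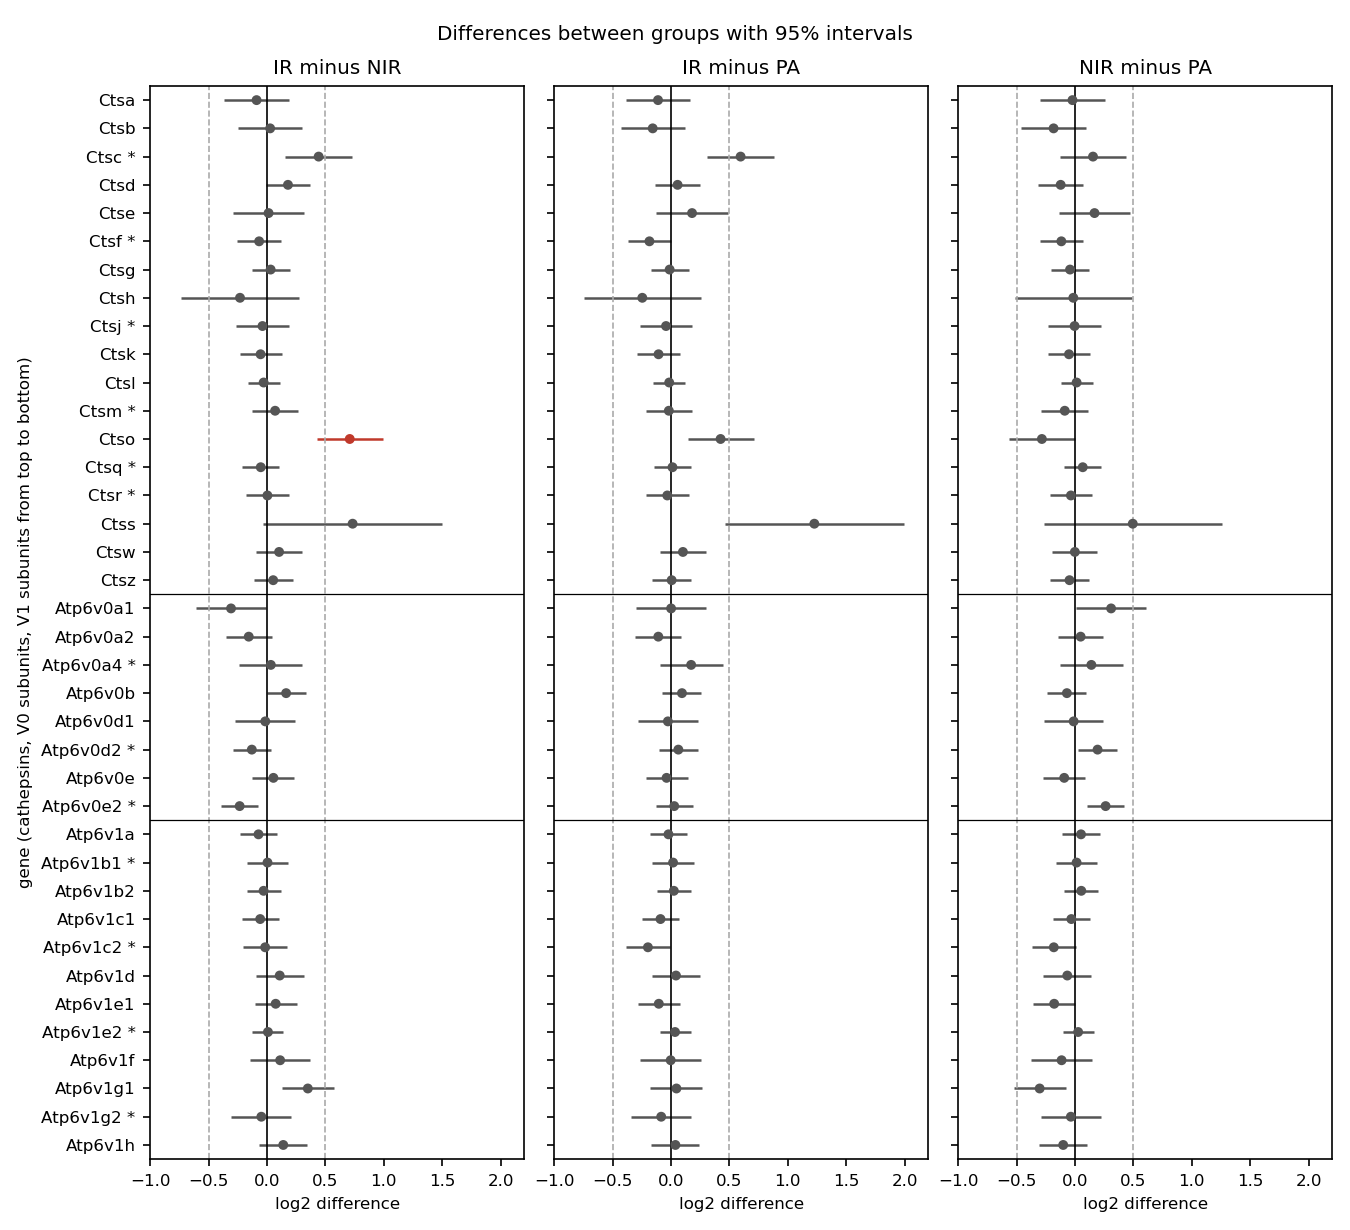
Log2 difference of each gene with its 95% interval from limma in the 3 comparisons named above the panels, with dashed lines at -0.5 and 0.5 and red for the single call, Ctso between IR and NIR (0.71). Most intervals lie between the dashed lines, and those of Ctss are the widest.

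Ctso, a cysteine cathepsin of the papain family, was the only one of the 38 called (Entrez Gene 229445). Its values were 7.00, 6.89 and 7.50 in IR, against 6.44, 6.41 and 6.40 in NIR and 6.69, 6.78 and 6.64 in PA. The 3 groups did not overlap, with every IR array above every PA array and every PA array above every NIR array, an order that Ctso alone of the 38 genes showed and that 91 of all genes showed (0.50%). The Ctso mean was 7.13 ± 0.327 for IR, 6.42 ± 0.0216 for NIR and 6.70 ± 0.0706 for PA (SD, n = 3 each). IR exceeded NIR 1.63-fold (log2 difference 0.71, SE 0.129, 95% interval 0.43 to 0.99, limma adjusted p = 0.0260). Against PA the differences were 0.42 for IR (limma adjusted p = 0.246) and -0.28 for NIR (limma adjusted p = 0.410), and neither passed. The call between IR and NIR was lost without IR1 (limma adjusted p = 0.0571), NIR1 (0.0678), NIR2 (0.0657), NIR3 (0.0538) or PA1 (0.0567), where the difference stayed between 0.70 and 0.77. It held without IR3, the array with the highest Ctso value, with a difference of 0.52 (limma adjusted p = 0.0156). A second Ctso probe set averaged 3.45 in IR and 3.50 in NIR, below the median probe set, and gave a difference of -0.04.

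Ctss, the cysteine cathepsin that antigen-presenting cells use to trim the invariant chain of MHC class II, had the largest positive difference of the cathepsins in each comparison but passed in none (Entrez Gene 13040). Its values were 4.81, 4.88 and 6.56 in IR, against 4.67, 4.73 and 4.66 in NIR and 4.42, 4.08 and 4.08 in PA. IR3 stood far above all other arrays, and without it the groups still did not overlap. The difference was 0.73 between IR and NIR (limma adjusted p = 0.339), 1.23 between IR and PA (limma adjusted p = 0.192) and 0.49 between NIR and PA (limma adjusted p = 0.632). Without IR3 the differences were 0.16 between IR and NIR (limma adjusted p = 0.596), 0.66 between IR and PA (limma adjusted p = 0.0137) and 0.49 between NIR and PA (limma adjusted p = 0.0250). Each comparison with PA was called only without that array, in 1 of the 9 fits that each left out 1 array. In that fit 186 of all genes were called between IR and PA, against 192 with all arrays. Between NIR and PA 370 of all genes were called in it, against 236 with all arrays.

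Ctsc, the dipeptidyl peptidase that activates serine proteases of immune cell granules, was dim in every array (Entrez Gene 13032). It read 3.42, 3.53 and 4.02 in IR, against 3.15, 3.32 and 3.17 in NIR and 3.02, 3.04 and 3.12 in PA, again with IR3 highest. The difference between IR and PA was 0.60 (95% interval 0.31 to 0.88, limma adjusted p = 0.0600). It was called in 2 of the 9 fits that each left out 1 array, without IR3 (0.41, limma adjusted p = 0.0478) and without IR1 (0.71, limma adjusted p = 0.0386). Of all genes 186 and 114 were called in these fits, against 192 with all arrays. The other Ctsc probe sets, also dim, gave -0.13 and 0.04 between IR and PA.

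Macrophages express Ctss, Ctsc, Ctsh and other cathepsins strongly, and cultures grown from tumours can hold host cells, so the 18 macrophage markers were read in the same arrays. Their mean was 5.25 in IR3 and 4.73 and 4.77 in the other IR arrays, against 4.67, 4.77 and 4.78 among NIR arrays and 4.40, 4.43 and 4.50 among PA arrays. The markers furthest above the other IR arrays in IR3 were Lyz2 (8.25, against 5.71 and 5.78 in IR1 and IR2), Lyz1 (8.30, against 6.04 and 5.99) and Cd68 (5.83, against 4.81 and 4.71). IR3 was not the highest IR array for Adgre1, C1qc, Csf1r, Fcer1g, Laptm5 or Ptprc, and was the highest for the others of the 18. Laptm5 was lower in IR3 (5.06) than in IR1 and IR2 (5.16 and 5.16). The defining markers Adgre1 (3.75 to 4.05 over the 9 arrays) and Ptprc (3.49 to 3.88) were below the median probe set in every array, and Csf1r was 5.50 to 5.91. Of the 18 markers, 10 averaged above the median probe set. Lyz1 was called higher in IR than in PA (1 of 18, against 0.297% of all genes). Lyz1 and Mrc1 were called higher in NIR than in PA (2 of 18, against 0.379% of all genes). None of the 18 was called between IR and NIR, where Ctso was called. Their part in the values of Ctss, Ctsc and Ctso was not tested. In such bulk RNA, a change in the number of cells of one kind and a change in RNA per cell cannot be told apart.

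**Figure D3:**
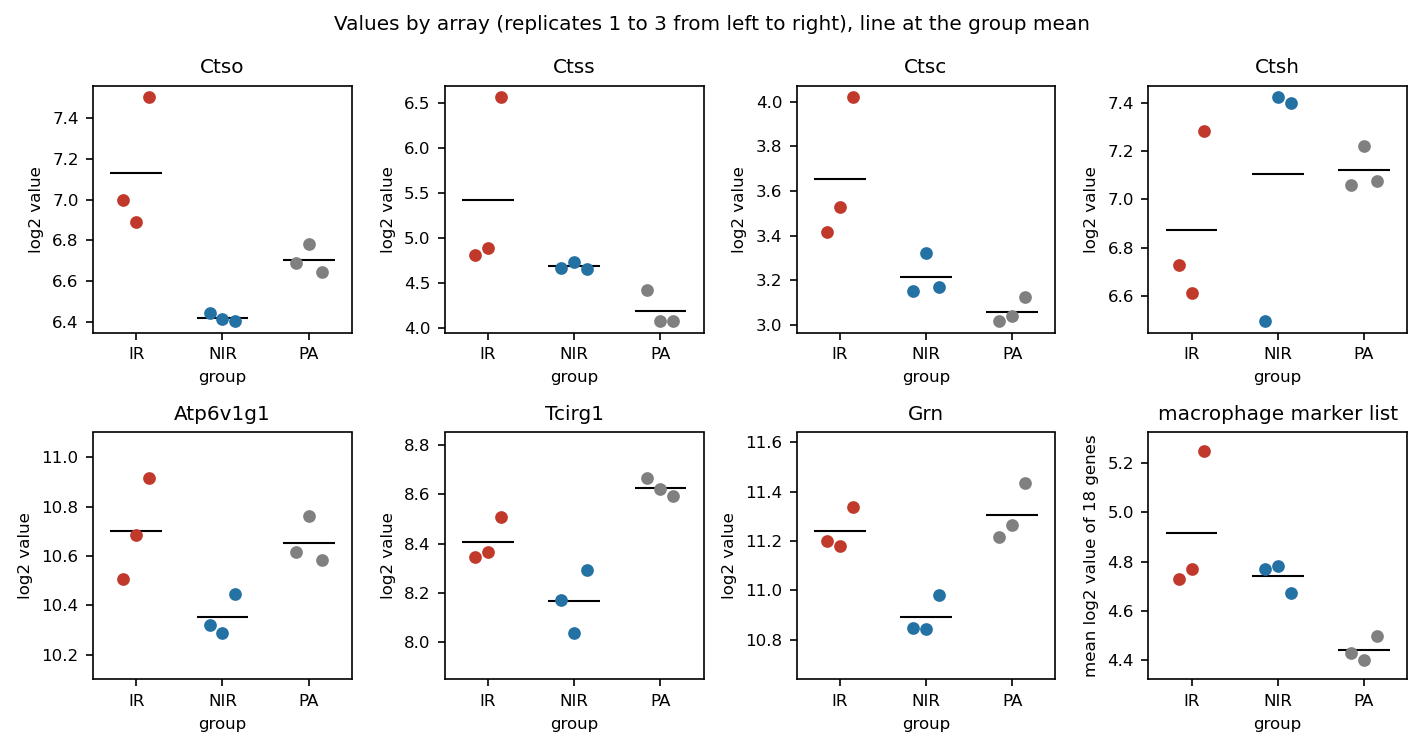
Log2 value in each array for 7 genes and, in the last panel, the mean log2 value of the 18 macrophage markers, with IR, NIR and PA from left to right and a line at each group mean. IR3 is the highest IR array in every panel, and Ctso is the cathepsin whose 3 groups lie fully apart with NIR lowest.

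None of the remaining cathepsins was called. Ctsl, a cysteine endopeptidase of nearly all lysosomes and a secreted product of many tumour cells, was 13.31, 13.28 and 13.31 in IR, against 13.38, 13.31 and 13.30 in NIR and 13.31, 13.33 and 13.31 in PA. Its 3 groups overlapped, and the 95% interval of the difference between IR and NIR was -0.17 to 0.11. Ctse, an aspartic protease of stomach lining and immune cells, was 12.31, 12.23 and 12.51 in IR, against 12.41, 12.61 and 11.99 in NIR and 12.30, 12.09 and 12.11 in PA. Its groups overlapped in each comparison, and a second Ctse probe set averaged 4.42 in IR, 4.40 in NIR and 4.24 in PA.

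Ctsb, a cysteine protease long studied at the invasive edge of tumours, was 11.21, 11.14 and 11.63 in IR, against 11.47, 11.20 and 11.24 in NIR and 11.57, 11.51 and 11.37 in PA. The difference was 0.03 between IR and NIR (95% interval -0.25 to 0.30), -0.16 between IR and PA (-0.43 to 0.12) and -0.18 between NIR and PA (-0.46 to 0.09). Ctsh, an aminopeptidase, varied most within groups after Ctss, at 6.73, 6.61 and 7.29 in IR, against 6.49, 7.43 and 7.40 in NIR and 7.06, 7.22 and 7.08 in PA. NIR1 was the lowest of the 9 arrays and NIR2 the highest, and the intervals of its differences were wide, from -0.73 to 0.27 between IR and NIR. Ctsd, the main aspartic protease of lysosomes, averaged 10.33 ± 0.145 in IR, 10.15 ± 0.118 in NIR and 10.27 ± 0.0207 in PA, with no difference called. For Ctsa, a carboxypeptidase that also protects other lysosomal enzymes, and Ctsz, a carboxypeptidase, the differences ran from -0.11 to 0.05 over the 3 comparisons.

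Most other cathepsins were close to or below the median probe set. Ctsj, Ctsm, Ctsq and Ctsr, which rodents express in the placenta, averaged between 3.05 and 4.09 in every group, and Ctsf averaged 4.08 in IR, 4.15 in NIR and 4.27 in PA. Ctsk, the collagen-degrading protease of osteoclasts, and Ctsg, a neutrophil granule protease, averaged between 4.46 and 4.62 in every group, close to that level. Ctsw, a cathepsin of cytotoxic lymphocytes, averaged 5.59 in IR, 5.49 in NIR and 5.49 in PA.

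None of the 8 V0 subunits with Atp6v0 symbols was called in any comparison by limma. Unadjusted limma p-values below 0.05 numbered 2, 0 and 3 between IR and NIR, IR and PA, and NIR and PA, where 15.9%, 8.59% and 12.1% of all genes had one. Atp6v0c was not among these 8, and Tcirg1, a V0 subunit under another symbol, is described below. Atp6v0b, a proteolipid of the proton-carrying ring, was 10.42, 10.46 and 10.59 in IR, against 10.28, 10.29 and 10.41 in NIR and 10.47, 10.41 and 10.31 in PA. IR lay above NIR without overlap, and the difference of 0.16 was the largest positive one of V0 in that comparison (limma adjusted p = 0.328). Atp6v0e, a small membrane subunit, differed by -0.09 to 0.05 and Atp6v0d1, which joins the ring to the central stalk in most cells, by -0.03 to -0.01. Atp6v0a1, an isoform of the large subunit a that is prominent in neurons, was 6.54, 6.40 and 6.63 in IR, against 6.80, 7.06 and 6.63 in NIR and 6.82, 6.38 and 6.37 in PA. The groups touched or overlapped in each comparison, with differences of -0.31 between IR and NIR (limma adjusted p = 0.292) and 0.31 between NIR and PA (limma adjusted p = 0.392). Its other probe sets gave differences of -0.25 to -0.01 between IR and NIR and -0.08 to 0.01 between NIR and PA. Atp6v0a2, the isoform of the Golgi and endosomes, differed by -0.16 between IR and NIR and -0.11 between IR and PA. The other probe sets of Atp6v0a2 gave -0.35 and 0.02 between IR and NIR and -0.14 and 0.07 between IR and PA, none of them called.

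None of the 12 V1 subunits was called either, with 1 unadjusted limma p below 0.05 in each comparison (all genes 15.9%, 8.59% and 12.1%). Atp6v1g1, a peripheral stalk subunit, came closest, at 10.51, 10.68 and 10.91 in IR, against 10.32, 10.29 and 10.45 in NIR and 10.62, 10.76 and 10.59 in PA. Every NIR array was below every IR and PA array, and the differences were 0.35 between IR and NIR (95% interval 0.13 to 0.57, limma adjusted p = 0.110) and -0.30 between NIR and PA (-0.53 to -0.08, limma adjusted p = 0.236). A second bright probe set of Atp6v1g1 gave 0.22 and -0.08, neither of them called. Atp6v1a, the catalytic subunit, differed by -0.07 between IR and NIR and -0.02 between IR and PA, and Atp6v1b2, its partner isoform in most cells, by -0.03 and 0.02. Atp6v1c1, a stalk subunit, was 10.77 to 10.86 in IR, 10.84 to 10.92 in NIR and 10.82 to 11.02 in PA. For Atp6v1f, a small subunit of the central stalk, the differences ran from -0.12 to 0.11. Atp6v1d, Atp6v1e1 and Atp6v1h, which complete the stalks and the regulatory part of V1, had differences of -0.18 to 0.14.

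Signal above the median probe set was seen for 13 of the 20 V-ATPase subunits, which were forms used in many tissues. The 7 below it were Atp6v0a4, Atp6v1b1 and Atp6v1c2, known from kidney, Atp6v0d2 from osteoclasts, Atp6v1e2 from testis, Atp6v1g2 from neurons, and Atp6v0e2. Their group means ran from 3.60 to 4.20. Atp6v0e2 had the smallest p of the 7, with 3.69, 3.54 and 3.67 in IR, against 3.96, 3.78 and 3.86 in NIR and 3.59, 3.60 and 3.62 in PA, and did not pass (NIR minus PA 0.26, limma adjusted p = 0.134). The mean over the 13 subunits above the median probe set was 9.15, 9.16 and 9.30 in IR, against 9.20, 9.15 and 9.17 in NIR and 9.22, 9.25 and 9.16 in PA. IR3 was the highest array and all groups overlapped.

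Tcirg1, the a3 isoform of the large V0 subunit that serves lysosomes and the osteoclast membrane, lies outside the Atp6v symbols. Though itself a V0 subunit, it was listed here with accessory and assembly proteins of the V-ATPase. Of the 15 genes measured in that list, Tcirg1 was the only one called, between NIR and PA, where 1.3% of all genes were called. It was 8.35, 8.37 and 8.51 in IR, against 8.17, 8.04 and 8.29 in NIR and 8.67, 8.62 and 8.59 in PA, and the groups did not overlap. Tcirg1 fell in NIR against PA (log2 difference -0.46, SE 0.0809, limma adjusted p = 0.0160). Differences of 0.24 between IR and NIR (limma adjusted p = 0.163) and -0.22 between IR and PA (limma adjusted p = 0.414) did not pass. The NIR call was lost without NIR1 (limma adjusted p = 0.0530), PA1 (0.0947), PA2 (0.0714) or PA3 (0.0601). Oxr1, whose TLDc domain is of a kind that binds the V-ATPase, gave -0.36 between IR and NIR (limma adjusted p = 0.119) and -0.42 between IR and PA (0.130). The difference from PA was called only without NIR2 (limma adjusted p = 0.0487), where 214 of all genes were called, against 192 with all arrays. Dmxl1, part of a complex that assembles V1 onto V0, gave 0.33 between IR and NIR (limma adjusted p = 0.226). In the comparisons of IR with NIR and of IR with PA limma called none of the 15, with 7 and 2 of them at an unadjusted p below 0.05, where 15.9% and 8.59% of all genes were. Between NIR and PA it was 1 of 15, against 12.1% of all genes.

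Of 38 other lysosomal hydrolases measured, limma called none in any comparison, and 4, 4 and 2 had an unadjusted p below 0.05 between IR and NIR, IR and PA, and NIR and PA (all genes 15.9%, 8.59% and 12.1%). Their median differences were 0.035, 0.046 and -0.0077. The hydrolases that differed most were Tpp1, a tripeptidyl peptidase (0.27 between IR and NIR), Gla, an alpha-galactosidase (-0.38 between IR and PA), and Arsa, a sulphatase (0.35 and 0.37 for IR and NIR against PA). Arsa was called in NIR against PA only without NIR3 (0.53, limma adjusted p = 0.0265), where 234 of all genes were called, against 236 with all arrays. Ids, the iduronate sulphatase, was 8.09, 8.15 and 8.15 in IR, against 8.06, 7.99 and 8.19 in NIR and 7.81, 7.71 and 7.87 in PA. Both tumour-derived groups of Ids lay above PA without overlap and without passing (limma adjusted p = 0.0720 for IR and 0.111 for NIR).

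Of 41 membrane and sorting proteins of the lysosome, 1 was called, between NIR and PA, where 1.3% of all genes were called. Grn, the precursor of the lysosomal granulins, was 11.20, 11.18 and 11.34 in IR, against 10.85, 10.84 and 10.98 in NIR and 11.22, 11.27 and 11.44 in PA. It fell in NIR against PA (log2 difference -0.42, limma adjusted p = 0.0323), with every NIR array below all others, and differed by 0.35 between IR and NIR (limma adjusted p = 0.0605). The NIR call was lost without IR1 (limma adjusted p = 0.0584), IR2 (0.0525), NIR1 (0.0996), NIR2 (0.0984), PA1 (0.0686), PA2 (0.0957) or PA3 (0.139), and with probe sets that bind several transcripts left out (-0.32, limma adjusted p = 0.396). It was also lost with the mean of the Grn probe sets (-0.35, limma adjusted p = 0.0893) and with NIR and PA fitted alone (0.0606). Npc1, the cholesterol exporter, gave -0.32 between IR and NIR, and Slc38a9, an arginine sensor, and Cln6, a protein of the endoplasmic reticulum, gave 0.27 and 0.22 between IR and PA, all without passing. Unadjusted limma p-values below 0.05 numbered 6, 1 and 9 of 41 between IR and NIR, IR and PA, and NIR and PA, where 15.9%, 8.59% and 12.1% of all genes had one.

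Of 17 genes measured in a list of cathepsin inhibitors limma called none. Unadjusted limma p-values were below 0.05 for 1, 1 and 0 of them between IR and NIR, IR and PA, and NIR and PA (all genes 15.9%, 8.59% and 12.1%). Cstb, the cytosolic inhibitor stefin B, was 12.20 in all 3 IR arrays, against 12.13, 11.94 and 12.19 in NIR and 12.20, 12.29 and 12.25 in PA. Cst6, a secreted cystatin, gave 0.29 between IR and PA (limma adjusted p = 0.303). Kng1, the kininogen precursor, gave 0.40 between IR and NIR from a signal near the median probe set. Serpinb9, in the list though described as an inhibitor of granzyme B, gave -0.19 in that comparison.

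Among 24 measured genes of the TFEB family and of the lysosomal mTORC1 machinery, 1 was called, between IR and NIR and between NIR and PA. Of all genes 1.65% and 1.3% were called there. Ppp3cb, a catalytic subunit of calcineurin, the phosphatase that releases TFEB to the nucleus, was 8.63, 8.60 and 9.05 in IR, against 7.90, 7.99 and 8.13 in NIR and 8.51, 8.53 and 8.59 in PA. IR exceeded NIR 1.68-fold (log2 difference 0.75, SE 0.113, limma adjusted p = 0.0119) and fell in NIR against PA (-0.54, limma adjusted p = 0.0427). The second call was lost without IR1 (limma adjusted p = 0.0584), NIR1 (0.131), NIR2 (0.113), NIR3 (0.0547), PA1 (0.142), PA2 (0.146) or PA3 (0.167). With the mean of its probe sets the differences were 0.11 between IR and NIR (limma adjusted p = 0.423) and -0.15 between NIR and PA (0.358), so both calls rest on the brightest probe set. Mitf, a relative of TFEB, averaged 7.00 in IR, 7.55 in NIR and 7.22 in PA. The difference between IR and NIR was -0.55 (limma adjusted p = 0.0976), or -0.73 with a call when IR3 was left out (limma adjusted p = 0.0342). No other alternative called Mitf, and without IR3 128 of all genes were called there, against 300 with all arrays. Unadjusted limma p-values below 0.05 numbered 6, 0 and 3 of 24 between IR and NIR, IR and PA, and NIR and PA, where 15.9%, 8.59% and 12.1% of all genes had one.

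**Figure D4:**
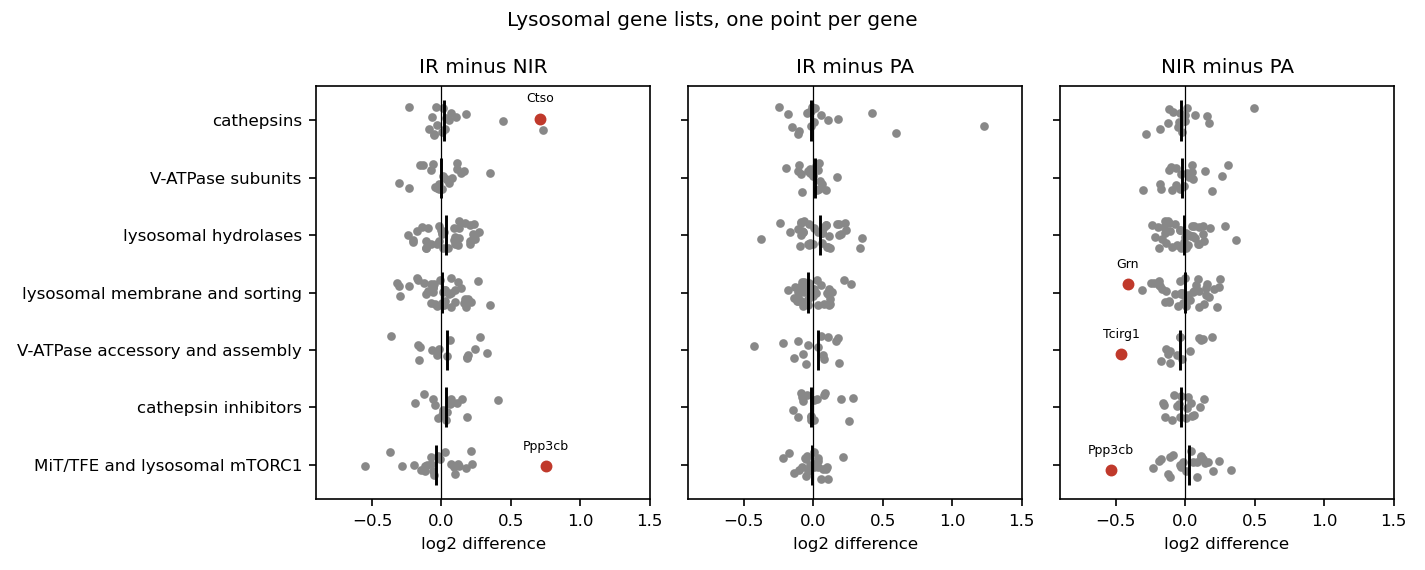
Log2 difference of each gene of the cathepsins, the V-ATPase subunits and 5 lists of related lysosomal genes in the 3 comparisons, with one point per gene, a black bar at the median of the list and named red points for calls. The points lie around 0 in every list, and the calls are Ctso and Ppp3cb between IR and NIR and Grn, Tcirg1 and Ppp3cb between NIR and PA.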

How the data were processed

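Gene expression was measured on 9 Affymetrix arrays. The deposited values are on the log2 scale, made with RMA per the submitters' processing notes, with no version or settings given, and were used as deposited. Of 45100 probe sets, 34944 were annotated to 1 gene, 932 to several and 9160 to none, and 64 were controls. Symbols were updated by Entrez Gene ID against RefSeq (34740 matched), and the probe set with the highest mean represented each of 18194 genes. The lmFit and eBayes functions of limma 3.58.1 (R 4.3.3) fitted a mean per group to all 9 arrays, with 6 residual and 5.48 prior degrees of freedom, and p-values were adjusted over all genes by Benjamini-Hochberg. The procedure was tried on simulated data with independent normal noise of the observed spread and changes in IR only. Between IR and NIR it recovered 48 of 67 genes changed by 0.5 on the log2 scale and 64 of 67 changed by 1. These data held no outlying array such as IR3. The precision is set by the number of arrays.

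The members, the gene lists and the tests were chosen with earlier results of these data known. Named genes are every called member, the 3 brightest members of each family, the largest rise and fall per family and comparison, and up to 4 called or 2 other genes per list and comparison. Ctsc, the remaining members and the probe set comparisons were named after their values were seen. The alternatives tried were genes above the median probe set only, averaging the probe sets of each gene, dropping those with several targets, another quantile normalization, trended and robust eBayes, fits to 2 groups, a replicate block, leaving out each array, and each other probe set of a named member. Promoter windows came from RefSeq on GRCm38.p6. Protein sequences were not used here. Python 3.11.15 and matplotlib 3.10.9 made the figures.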

Additional observations from a re-analysis of the deposited data

Results flagged for a closer look

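Ctso differed in how IR and NIR stood against PA: the log2 difference was 0.42 for IR minus PA and -0.28 for NIR minus PA, and the test of the difference between these, which is IR minus NIR, passed (0.71, limma adjusted p = 0.0260). Ppp3cb showed the same, with 0.21 for IR minus PA and -0.54 for NIR minus PA, and a difference of 0.75 between IR and NIR (limma adjusted p = 0.0119). Both comparisons use the same PA arrays.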

How the results depend on the processing

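The count of members called was recomputed under 16 alternatives in each comparison, and 37 of the 48 counts were as reported. Between IR and NIR, where Ctso was the 1 member called, the count was 0 with the mean of all probe sets of a gene (Ctso 0.33, limma adjusted p = 0.0686) and 0 when only the arrays of IR and NIR were fitted (0.71, limma adjusted p = 0.126), a fit with fewer arrays to estimate the spread. It ran from 0 to 1 without single arrays, and it was 1 with the replicate block. Between IR and PA the count was 1 (Ctsc) with trend and robust eBayes, and ran from 0 to 2 without single arrays. Between NIR and PA it ran from 0 to 1 without single arrays. In the fits without single arrays, 77 to 271 of all genes were called between IR and NIR. Between IR and PA it was 99 to 214 of all genes, and between NIR and PA 121 to 370. With all arrays these numbers were 300, 192 and 236. The dim second probe set of Ctso reversed the direction between IR and NIR (-0.044, limma adjusted p = 0.891), and the cause was not tested. Of 924 values of members named by rule, under these alternatives and their other probe sets, 847 kept their direction and side of the threshold. Of the others 67 changed sign without a call, 7 lost and 2 gained a call, and 1 was the reversed Ctso probe set. All 7 losses were of Ctso between IR and NIR, the only member call. Most of the 847 were thus uncalled values that stayed uncalled. The tally leaves out the members named after their values were seen, among them Ctsc, which gained calls between IR and PA. Among the related lysosomal genes, the Ppp3cb call between IR and NIR was also lost with those 2 groups fitted alone (limma adjusted p = 0.0886), and Grn was called between IR and NIR with trend and robust eBayes (0.0285) and with the replicate block (0.0496). No pairing of the samples by replicate number was visible. Deviations from the group means correlated at -0.20 to 0.10 between arrays of the same number and at -0.12 to 0.25 between others. Correlations over all genes could miss a weak pairing or one limited to some genes. Signal over background limits the 13 members below the median probe set, for which no detection calls were used here.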

Other observations

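The cathepsins with numbered symbols, Cts3, Cts6, Cts7 and Cts8, and Ctsll3, which rodents express in the placenta, were read separately, since their symbols fall outside the lettered series. All 5 were below the median probe set of 4.49 in every array. Ctsll3 was 3.74, 3.95 and 3.63 in IR, against 3.91, 3.99 and 3.60 in NIR and 3.95, 3.91 and 3.93 in PA. Cts6 was 2.87, 3.03 and 2.96 in IR, against 2.93, 2.80 and 2.96 in NIR and 2.84, 2.96 and 2.98 in PA. They were as dim as their lettered placental relatives Ctsj, Ctsm, Ctsq and Ctsr.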
